A study of Mus musculus with 6 samples.

Results

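Of 42310 accessible regions of DMSO-treated NMuMG cells, 631 lay over at least 2 separate accessible regions of cells given BRM014, and these split regions are described here. They were chosen on the called intervals alone. Overlapping entries within each peak list were merged, and a DMSO region counted as split when it overlapped, by at least 1 bp, at least 2 separate regions of the 6 h list or at least 2 of the 30 h list. The split regions made up 1.49% of all DMSO regions. Because the treated intervals chose them, the number split and the presence of a gap are descriptions and not findings.

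The assay was ATAC-seq, which reads out open chromatin by letting the Tn5 transposase cut accessible DNA and tag it with adapters. NMuMG is an established line of epithelial cells from normal mouse mammary gland, and the samples were labelled wild type (WT). There were 2 biological replicates each of BRM014 for 6 h, of BRM014 for 30 h, and of the vehicle DMSO, whose 30 h is known only from the name of its list. Each group has 1 deposited peak list made from both replicates, so no value had a replicate error and no test between treatments was possible. Both treated lists were set against the same DMSO list, and the 6 h list had no vehicle list of its own time. The labels' extraction protocol also describes TGFβ treatment, which no sample label carries.

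SWI/SNF complexes use the energy of ATP to slide or evict nucleosomes, and their ATPase is either BRG1 or BRM. BRM014 blocks the activity of both. A peak caller joins neighbouring sites of transposition into 1 interval when the signal between them stays above its threshold, so a wide interval at an enhancer or promoter often holds several summits, each a local maximum of insertions. A gap inside such an interval is a stretch without a call, and its chromatin need not be closed.

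After merging, 25922 regions at 6 h had a median width of 656 bp, 38422 at 30 h a median of 601 bp, and the 42310 of DMSO a median of 677 bp. The lowest background in a list was used as a measure of its relative depth, and it stood at 63.0% of the DMSO value in the 6 h list and at 80.7% in the 30 h list. The 3 lists therefore differed in depth as well as in treatment, and these cannot be told apart. Neighbouring regions of a list were never closer than 71 bp at 6 h, 72 bp at 30 h and 71 bp in DMSO, so narrower gaps could not appear. Intervals beside shares are 95% Wilson intervals, those beside medians are 95% order-statistic intervals, and all cover counting error only. Coordinates are 1-based on the mouse build mm9. No annotation of that build was at hand, so regions are given by position, without gene names.

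At 6 h, 295 DMSO regions were split, which is 0.697% of all DMSO regions and 1.24% (1.10 to 1.38) of the 23858 with at least 1 region at that time. At 30 h, 441 were split, which is 1.04% of all and 1.41% (1.28 to 1.55) of the 31283 with at least 1 region. Of the 631 split regions, 190 were split at 6 h alone, 336 at 30 h alone and 105 at each of the times. Splits gave a pair of pieces in nearly every case, and 3 regions at each time had 3 pieces. With each list limited to the same number of strongest regions, the order of the times turned, with 268 regions split at 6 h and 191 at 30 h.

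The rule drew a sharp line through a continuous range of distances. Just inside it lay a 30 h split on chromosome 19 (40573493 to 40574380) whose second piece overlapped the DMSO region by 1 bp, and another on chromosome 13 (38242885 to 38244052) with an overlap of 10 bp. Just outside it lay a DMSO region on chromosome 9 (122089141 to 122089670) with a further 6 h region 9 bp beyond its end, and one on chromosome 17 (12907778 to 12908436) with a 6 h region 11 bp away. Most second pieces were far from that line. The second piece overlapped by a median of 329 bp at 6 h and 347 bp at 30 h, and by less than 150 bp in 22 of 295 and 17 of 441 split regions. Outside the line, unsplit DMSO regions with a further treated region within 150 bp outnumbered the split ones. They were 345 of the 23563 with 1 region at 6 h (1.46%) and 665 of the 30842 with 1 region at 30 h (2.16%).

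The opposite arrangement, in which 1 treated region lay over at least 2 separate DMSO regions, was present in both treated lists. It held for 157 regions of the 6 h list, 0.606% of that list and 0.654% (0.560 to 0.764) of the 23999 that overlapped any DMSO region. In the 30 h list it held for 199 regions, 0.518% of the list and 0.631% (0.550 to 0.725) of 31528. These shares were below those of DMSO regions split at the same time, but with entries at a score of 1000 the order turned at 6 h, where 0.580% (86 of 14832) of 6 h regions lay over at least 2 DMSO regions and 0.255% (76 of 29811) of DMSO regions were split. Splits also occurred between the treated lists, with no DMSO region involved. This held for 230 regions of the 6 h list over regions of the 30 h list, 0.887% of the list and 0.953% (0.838 to 1.08) of the 24142 that overlapped it. It held for 206 regions of the 30 h list over regions of the 6 h list, 0.536% of the list and 0.852% (0.744 to 0.976) of the 24166 that overlapped it.

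Split regions were wide, and width moved with the share split in every direction of comparison. Among DMSO regions of 1000 to 1199 bp with at least 1 treated region, 1.63% (1.26 to 2.11) were split at 6 h and 2.65% (2.19 to 3.22) at 30 h. Among those of 1400 to 1599 bp the shares were 6.72% (5.06 to 8.87) at 6 h and 9.48% (7.53 to 11.9) at 30 h. At 6 h the shares in the opposite direction had intervals that overlapped these in every bin from 800 to 1799 bp. Of 6 h regions of 1000 to 1199 bp, 1.63% (1.18 to 2.24) lay over at least 2 DMSO regions, and of those of 1400 to 1599 bp, 6.64% (4.34 to 10.0). At 1200 to 1399 bp the share was 3.61% (2.54 to 5.10) in the opposite direction, against 4.60% (3.66 to 5.76) of DMSO regions split. In the narrowest bin, 600 to 799 bp, the intervals were apart, with 0.158% (0.0858 to 0.290) in the opposite direction and 0.493% (0.347 to 0.699) of DMSO regions split.

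At 30 h the opposite direction had the lower share in each of these bins, with overlapping intervals at 800 to 999 bp and 1600 to 1799 bp. Of DMSO regions of 600 to 799 bp, 0.315% (0.215 to 0.461) were split at 30 h, whereas 0.112% (0.0591 to 0.213) of 30 h regions of that width lay over at least 2 DMSO regions. Of DMSO regions of 1200 to 1399 bp, 6.87% (5.75 to 8.19) were split at 30 h, whereas 2.97% (2.16 to 4.07) of 30 h regions of that width lay over at least 2 DMSO regions. In the bin of 1600 to 1799 bp the shares were 11.4% (7.95 to 16.1) and 11.04% (7.10 to 16.8). Splits of 6 h regions in the 30 h list had shares near those of DMSO regions in that list, with 5.43% (4.09 to 7.19) at 1200 to 1399 bp and 9.93% (7.05 to 13.8) at 1400 to 1599 bp.

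**Figure D1:**
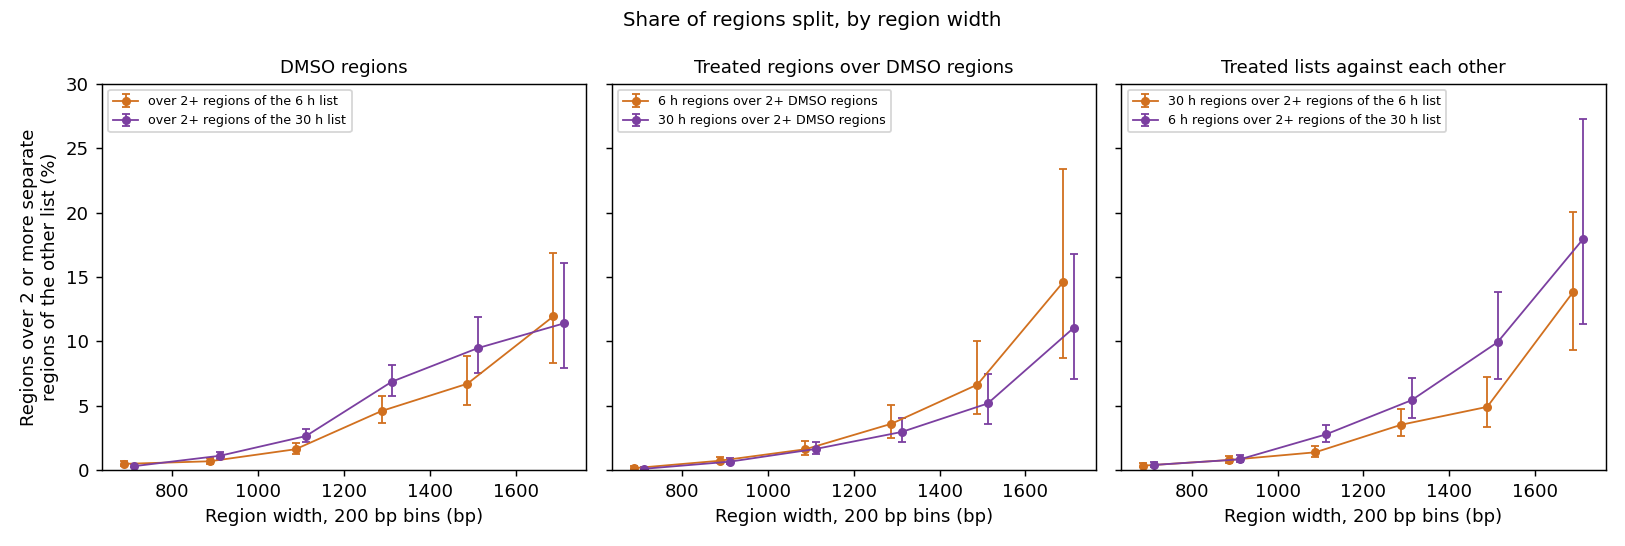
Share of regions (%, vertical axis) that lay over at least 2 separate regions of another list, in 200 bp bins of region width from 600 to 1799 bp (horizontal axis), among regions with at least 1 region of that list. The left panel has DMSO regions split at 6 h and at 30 h, the middle panel the opposite direction and the right panel the treated lists against each other; bars are 95% Wilson intervals, and over the 6 curves the share runs from 0.112% to 0.493% at 600 to 799 bp and from 11.04% to 17.98% at 1600 to 1799 bp.

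The 631 split regions had a median width of 1213 bp in the DMSO list (1176 to 1237), with quartiles at 986 and 1423 bp and extremes of 451 and 2580 bp. Of these, 527 (83.5%) were in the widest quartile of DMSO regions, from 889 to 2580 bp, against 36.9% of the 22298 unsplit DMSO regions called at both times. In the widest quartile 2.78% (245 of 8825) of called DMSO regions were split at 6 h and 3.93% (383 of 9745) at 30 h. In the narrowest quartile, from 150 to 492 bp, 2 of 3352 were split at 6 h and 0 of 5954 at 30 h, which allows a share of up to 0.0504%. A region must be wide enough to hold 2 pieces and a gap, so width is tied to the rule and was not tested.

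Most split regions held several DMSO summits. A single summit was called in 14 of the 631, 2 summits in 195, 3 in 213, 4 in 125, 5 in 56, 6 in 24 and 7 in 4. At least 3 summits were called in 66.9% of split regions and in 27.6% of unsplit regions called at both times. Within the widest quartile these shares were 78.2% (74.5 to 81.5, n = 527) for split and 64.4% (63.3 to 65.4, n = 8233) for unsplit regions. The share split followed the number of summits within that quartile too. At 6 h it was 0.305% for 1 summit, 1.75% for 2, 2.41% for 3 and 4.89% for at least 4 summits. At 30 h it was 0 of 374 for 1 summit, which allows up to 0.802%, and 2.72%, 4.06% and 5.83% for 2, 3 and at least 4 summits.

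The summits of split regions were nearer to each other in height and farther apart than those of unsplit regions. Heights here are pileups, the number of reads stacked at a summit as recovered from the deposited fold enrichment and p-value. In the widest quartile the second highest summit reached 64.5% (61.6 to 67.2, n = 526) of the highest in split regions. In unsplit regions, here those called at both times, it reached 48.0% (46.7 to 48.9, n = 7910). Among regions of that quartile with exactly 2 DMSO summits, it reached 61.4% (55.7 to 66.0, n = 114) in split and 33.7% (32.4 to 35.2, n = 2609) in unsplit regions. The summits of these lay 499 bp apart (482 to 521) in split and 407 bp apart (402 to 413) in unsplit regions. With 3 summits, the outermost pair spanned 780 bp in split and 665 bp in unsplit regions. The rule did not read these values, but it needed at least 2 treated pieces to be called with a stretch without a call between them. That can itself favour regions with high and distant summits, so these differences are tied to the rule and were not tested. Wider regions also leave more room between summits, and the median widths in the quartile were 1263 bp for split and 1068 bp for unsplit regions.

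Split regions were not the strongest regions of their width. In the widest quartile their median −log10 q was 180 (166 to 194), against 220 (216 to 224) for unsplit regions called at both times. Their median fold enrichment was 13.4 (12.9 to 13.8), against 15.8 (15.7 to 15.9). A split needs a call at only 1 time, so these sets are unlike. With regions called at 30 h, the median −log10 q was 180 (161 to 201) for split and 202 (198 to 207) for whole regions, with overlapping intervals. With those called at 6 h it was 188 (168 to 213) and 218 (214 to 221). Over regions of all widths, the share split was highest in the middle to upper range of −log10 q. Its interval there overlapped that of the strongest decile at both times. At 6 h it was 1.73% (45 of 2597) in the sixth decile from the weakest, against 1.29% (54 of 4175) in the strongest decile and 0 of 451 in the weakest, which allows up to 0.665%. At 30 h it was 2.11% (81 of 3841) in the seventh decile, 1.83% (77 of 4209) in the strongest and 0.370% (5 of 1353) in the weakest. Within the widest quartile few called regions were weak, and the second decile had 2.82% (0.776 to 9.70, 2 of 71) split at 6 h and 5.48% (2.80 to 10.4, 8 of 146) at 30 h. In that quartile the sixth decile had 4.45% (37 of 832) at 6 h and the seventh 5.28% (69 of 1306) at 30 h, against 2.34% (52 of 2225) and 3.22% (72 of 2237) in the strongest. Ranked on fold enrichment over all widths, the order of the extremes turned, with 0.298% in the strongest and 1.003% in the weakest decile at 6 h, and 0.429% and 0.936% at 30 h.

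The 105 regions split at both times had a larger median width and a larger share with at least 3 summits than those split at 1 time, with no test made. Their median width was 1332 bp, against 1181 bp in each of the others, 96.2% were in the widest quartile, 79.0% had at least 3 summits, against 61.1% for 6 h only and 66.4% for 30 h only, and 0 of 105 had 1 summit, which allows up to 2.86%. Their second highest DMSO summit reached 71.8% (63.8 to 78.9) of the highest. For the regions split at 6 h only this value was 62.2% (58.2 to 68.2), and for those split at 30 h only 59.0% (54.3 to 63.6). On −log10 q their median was the highest, with overlapping intervals, at 192 (158 to 229), against 161 (146 to 182) for 6 h only and 162 (142 to 179) for 30 h only.

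The 8 strongest of the regions split at both times show the usual form, with a gap between DMSO summits and none of their DMSO summits inside it. On chromosome 6 (66986425 to 66987746, 1322 bp), there were pieces with pileups of 173 and 567 at 6 h, parted by 126 bp, and of 215 and 757 at 30 h, parted by 82 bp. In DMSO the same stretch was 1 interval with summits of 347, 74, 192 and 864. Scaled by relative depth, the DMSO summits of 347 and 864 would give 219 and 544 at 6 h, and 280 and 697 at 30 h. The left piece was thus below this expectation at both times and the right piece above it.

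On chromosome 15 (51684967 to 51686229), the pieces reached 319 and 106 at 6 h and 649 and 204 at 30 h, against 680 and 416 at the pair of summits of the 1263 bp DMSO interval. Expected from DMSO were 428 and 262 at 6 h, and 549 and 336 at 30 h. The gap was 133 bp at 6 h and 173 bp at 30 h. At 6 h both pieces were below their expectation, the right-hand one by more, and at 30 h only the right-hand one was. On chromosome 3 (138189102 to 138190543) it was the left-hand piece that was below its expectation. Its pileup was 237 at 6 h and 457 at 30 h, where the DMSO summit of 643 would give 405 and 519, and the right-hand piece had 207 and 300, where 206 and 264 were expected.

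Both pieces were below expectation at both times in 3 of the 8 regions. On chromosome 18 (22051155 to 22052286) the pieces had pileups of 50 and 136 at 6 h and of 65 and 185 at 30 h, against 281 and 559 at the DMSO summits. These summits would give 177 and 352 at 6 h, so the shortfall was the largest among the 8. On chromosome 19 (57347323 to 57348234, 912 bp) the pieces had 107 and 275 at 6 h and 149 and 356 at 30 h, against DMSO summits of 228 and 659. Elsewhere on chromosome 19 (14729646 to 14730997) they had 216 and 76 at 6 h and 443 and 101 at 30 h, against DMSO summits of 713 and 198. These regions on chromosome 19 had gaps of 83 and 84 bp, and of 95 and 100 bp, at 6 h and 30 h.

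On chromosome 7 (53069153 to 53070272) both pieces were above expectation, although the interval was split at the same place at both times by a gap of 97 bp. Their pileups were 114 and 528 at 6 h and 119 and 555 at 30 h, against 138 and 610 at the DMSO summits, which would give 86.9 and 384 at 6 h and 111 and 492 at 30 h. The last of the 8, on chromosome 19 (32378931 to 32380017), had a left-hand piece that began outside the DMSO region, at 32378574 at 6 h and 32378552 at 30 h. That piece had pileups of 69 and 161, where the DMSO summit of 62 under it would give 39.1 and 50.05. Its pileup is the highest of the whole piece and may belong to the part outside the DMSO region. The right-hand piece had 277 at 6 h and 504 at 30 h, where the DMSO summit of 636 would give 401 and 513.

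**Figure D2:**
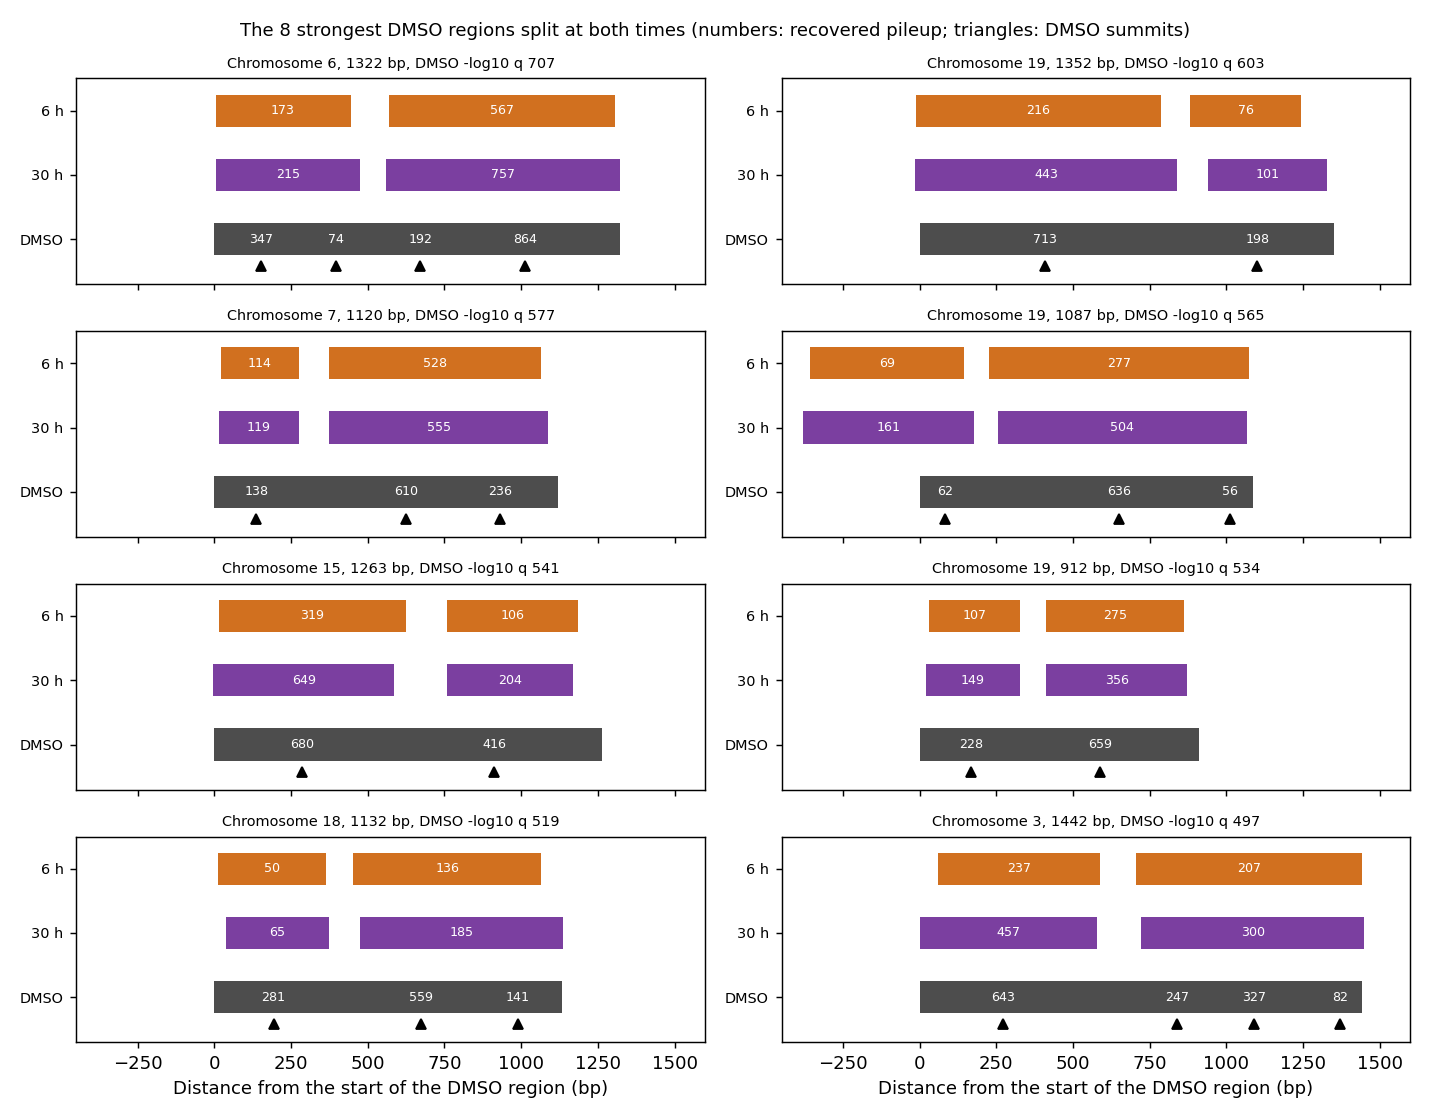
Maps of the 8 strongest DMSO regions split at both times, with distance from the start of the DMSO region in bp on the horizontal axis and 1 row each for the 6 h, 30 h and DMSO lists. Bars are called regions, numbers are recovered pileups and triangles are DMSO summits; in each map the treated rows are broken at nearly the same place, between DMSO summits, by gaps of 78 to 173 bp.

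Gaps were narrow at both times. The 298 gaps at 6 h had a median of 113 bp (104 to 121), with quartiles at 85 and 164 bp and extremes of 71 and 691 bp. The 444 gaps at 30 h had a median of 108 bp (103 to 112), with quartiles at 87 and 151 bp and extremes of 72 and 828 bp. At 6 h 41.6% of gaps were narrower than 100 bp and 68.8% narrower than 150 bp. At 30 h these shares were 41.7% and 74.5%. Gaps of at least 300 bp made up 8.72% at 6 h and 7.21% at 30 h. The narrow end lies at the smallest distance the lists contain, so the median depends on how the caller joined neighbouring signal.

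The gap usually fell between DMSO summits. A DMSO summit lay on each side of the gap in 280 of 298 gaps at 6 h (94.0%) and in 427 of 444 at 30 h (96.2%). The nearest summits on the left and right were a median of 469 bp apart at 6 h and 471 bp at 30 h. A DMSO summit lay inside 46 gaps at 6 h (15.4%, 11.8 to 19.98) and 53 at 30 h (11.9%, 9.24 to 15.3). These were the wide gaps, with medians of 296 bp at 6 h and 299 bp at 30 h, whereas gaps without a DMSO summit had medians of 101 and 103 bp. Of the gaps of at least 200 bp, 31 of 49 at 6 h and 39 of 66 at 30 h held a DMSO summit, and of those narrower than 150 bp, 7 of 205 and 8 of 331 did. The rule needs a called piece on each side of the gap, and a narrow gap has less room for a summit than a wide one. These counts are therefore tied to the rule and to gap width, and were not tested.

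**Figure D3:**
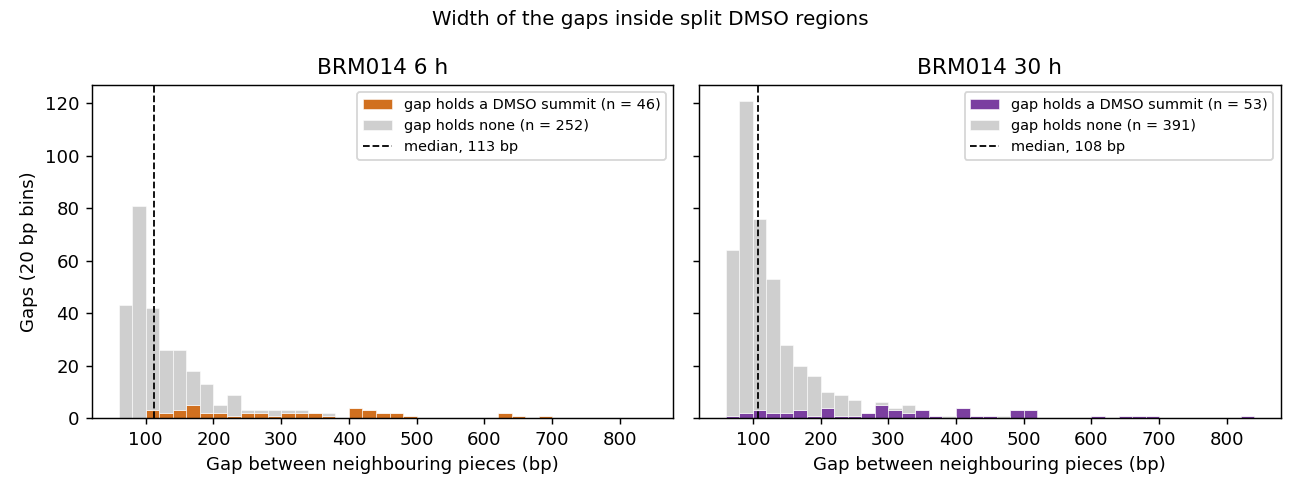
Number of gaps (vertical axis) by gap width in 20 bp bins (bp, horizontal axis) inside DMSO regions split at 6 h (left) and 30 h (right). Coloured bars are gaps that hold a DMSO summit and grey bars, stacked on them, those that hold none; dashed lines mark the medians of 113 and 108 bp, and most gaps with a DMSO summit lie to the right of them.

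DMSO summits inside gaps were mostly low, which the definition of a gap as a stretch without a treated call itself favours. Their DMSO pileup had a median of 56 at 6 h and 49 at 30 h, which is 23.2% and 21.3% of the highest summit of their region. Scaled to the depth of the treated list, the medians became 35.3 at 6 h and 39.6 at 30 h, where the first decile of the pileup of called regions was 37 and 40. At 6 h 26 of the 46 gap summits, and at 30 h 27 of the 53, were below that decile. The decile is taken over the highest pileup of each region and is not the limit of calling. Called entries had pileups down to 6 at 6 h and 7 at 30 h. The strongest DMSO summit of the region by −log10 q lay in the gap in 1 of 298 gaps at 6 h and in 0 of 444 at 30 h, which allows a share of up to 0.676%.

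Around the gaps, summits stood highest at like distances in all 3 lists, while the cover by called regions differed between lists. Cover beside the gap by the list that defines it, and by the DMSO list, is largely set by the rule. At 200 bp to the left and right of the centres of 6 h gaps, 93.3% and 94.0% of positions lay in a 6 h region, and 95.6% and 96.6% in a DMSO region. At the centre itself 62.1% of positions lay in a 30 h region. Around the centres of 30 h gaps the 6 h list covered 37.2% of centres, and 67.1% and 67.6% of the positions 200 bp to the left and right. At these positions the 30 h list covered 94.6% and 95.5%, and the DMSO list 98.2% and 98.6%. Summits of each list peaked near 200 bp from the centre on both sides.

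**Figure D4:**
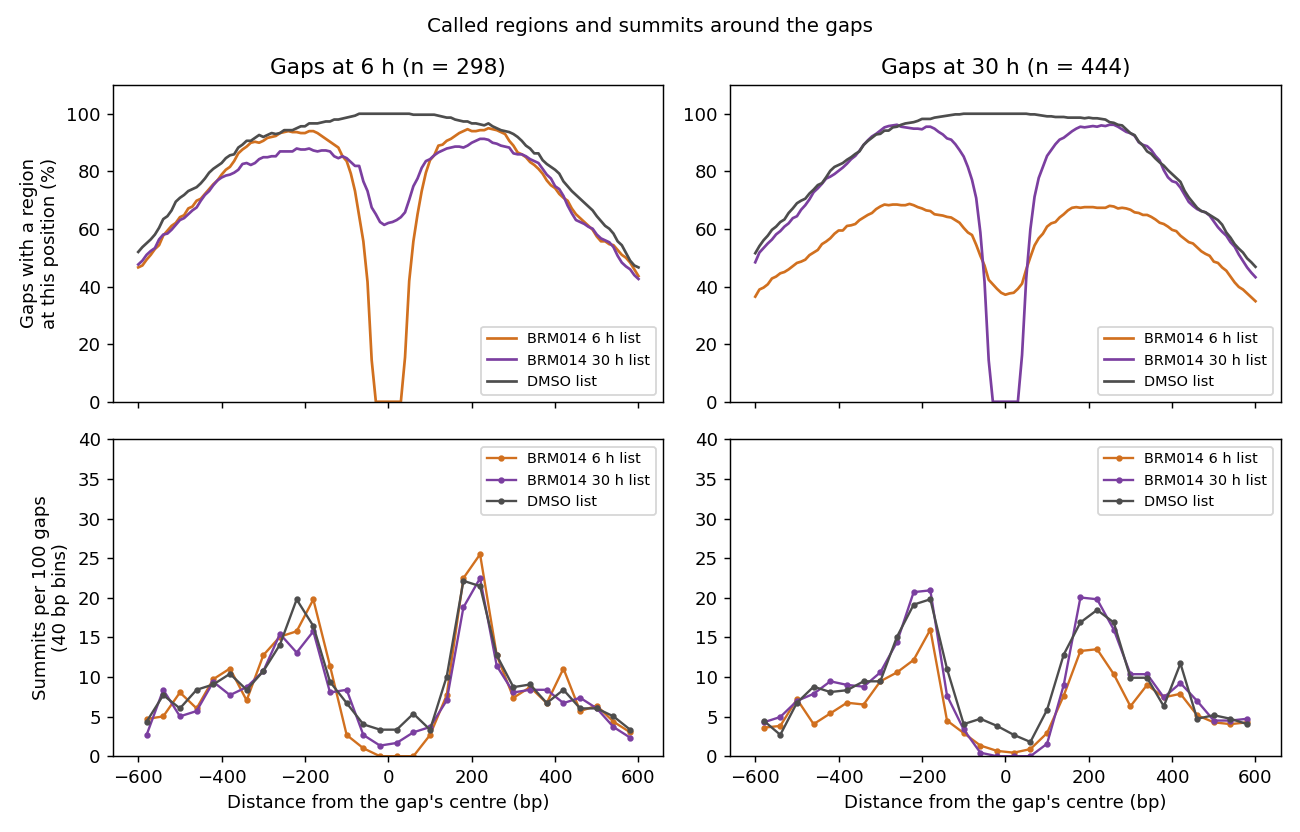
Upper panels give the share of gaps (%) with a called region at each distance from the gap's centre (bp), lower panels the number of summits per 100 gaps in 40 bp bins, for gaps at 6 h (left, n = 298) and at 30 h (right, n = 444), with 1 line for each list. By construction the list that defines the gap is at 0 at the centre and the DMSO list at 100%; the other treated list dips to 62.1% and 37.2%, and summits of all 3 lists stand highest about 200 bp to each side.

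Many gaps of 1 time were covered by a called region at the other. Of the 298 gaps at 6 h, 163 (54.7%) were covered by 1 region at 30 h, 101 (33.9%) overlapped a gap at 30 h, 14 had only a 30 h region on the left, 15 only one on the right, and 5 had none. Of the 444 gaps at 30 h, 149 (33.6%) were covered by 1 region at 6 h, 102 (23.0%) overlapped a 6 h gap, 67 had only a 6 h region on the left, 72 only one on the right, and 53 (11.9%) had none. Gaps covered at the other time were narrower, with medians of 96 bp for those at 6 h and 98 bp for those at 30 h, than gaps present at both, with 140 and 120 bp. A covered gap had to be spanned whole, which is easier for a narrow gap, whereas 1 shared bp made gaps overlap. This difference is therefore tied to how the classes were defined and was not tested.

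Where a region was split at both times, the gaps of both times nearly always shared at least 1 bp. They did so in 100 of the 105 regions, and in 53 their centres were within 20 bp of each other. Overlapping gaps could still differ in place, as on chromosome 6 (145813839 to 145815436), where the centres were 297 bp apart. How often gaps would overlap by place alone was not tested. The gap was wider at 6 h in 60 of the 105. The centre of the gap lay a median of 38.2% of the region's width from its nearer end at 6 h and 39.3% at 30 h, on a measure that reaches 50% at the middle of the region.

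The higher of the pieces usually held the strongest DMSO summit. It did so in 235 of 295 regions split at 6 h (79.7%, 74.7 to 83.9) and in 373 of 441 split at 30 h (84.6%, 80.9 to 87.7). The lower piece had it in 58 and 68 regions, and no piece in 2 and 0. The higher piece had a median width of 603 bp at 6 h and 609 bp at 30 h, and the lower piece 389 and 398 bp. The lowest piece reached 60.3% of the pileup of the highest at 6 h and 59.1% at 30 h.

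Summits within the pieces stayed near DMSO summits. From the strongest summit of a piece to the nearest DMSO summit in it the median distance was 12 bp for higher and 12 bp for lower pieces at 6 h, and 8 and 11 bp at 30 h. For unsplit regions it was 11 bp at 6 h and 10 bp at 30 h. A DMSO summit lay within 50 bp in 92.9% of higher and 85.9% of lower pieces at 6 h, against 93.5% of unsplit regions. At 30 h the shares were 96.6% and 90.5% for the pieces, against 95.3% for unsplit regions. Pieces without any DMSO summit were few, with 3 higher and 17 lower pieces at 6 h and 4 and 13 at 30 h. Together the pieces, in split regions of all widths, covered a median of 82.0% of the DMSO interval at 6 h and 85.6% at 30 h. Unsplit treated regions in the widest quartile covered 87.6% and 93.6%. The pieces leave out at least 1 gap by construction, so the lower cover of split regions is not a finding.

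The height of the pieces was set against the pileup expected from the highest DMSO summit within each piece, scaled by relative depth. The found pileup is the highest of the whole treated region, but DMSO summits were taken only from the part shared with the DMSO region. At 6 h 64.7% of higher pieces, 71.5% of lower pieces and 53.0% of whole regions lay wholly inside it. At 30 h these shares were 61.2%, 59.0% and 45.3%. At 6 h the ratio of found to expected had a median of 0.836 (0.775 to 0.900, n = 292) in higher pieces, 0.763 (0.704 to 0.797, n = 281) in lower pieces and 0.856 (0.850 to 0.862) in regions that stayed whole. At 30 h it was 0.982 (0.947 to 1.01, n = 437) in higher pieces, 0.934 (0.908 to 0.969, n = 431) in lower pieces and 0.985 (0.980 to 0.990) in regions that stayed whole. Higher and lower are ranks by the treated pileup that enters the ratio, which by itself raises the ratio of the higher pieces and lowers that of the lower ones, and regions that stayed whole carry no such rank. The medians of the pieces and of whole regions are therefore given side by side and not compared. These ratios rest on the lowest background as the measure of depth.

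The ratios were also taken in bins of the expected pileup, and lower pieces had their lowest medians in the highest bin. The expected pileup is the ratio's own denominator, so a fall along the bins is partly built in. At an expected pileup of 128 to below 256, the lower pieces had a ratio of 0.660 (0.544 to 0.717) at 6 h and 0.756 (0.691 to 0.837) at 30 h, where regions that stayed whole had 0.765 and 0.923. At 256 to below 512, 11 lower pieces at 6 h had 0.346 (0.242 to 0.590) and 32 at 30 h had 0.564 (0.401 to 0.768). Whole regions in that bin had 0.831 and 0.919. At 32 to below 64 the ratios of lower pieces were 0.995 and 1.26, and those of whole regions 1.02 and 1.22. At 64 to below 128 lower pieces had 0.773 and 0.975, and whole regions 0.820 and 0.978. Lower pieces were moreover chosen by the ranking on the treated pileup. The bins therefore do not compare pieces with whole regions, and the cause of the low ratios was not tested.

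**Figure D5:**
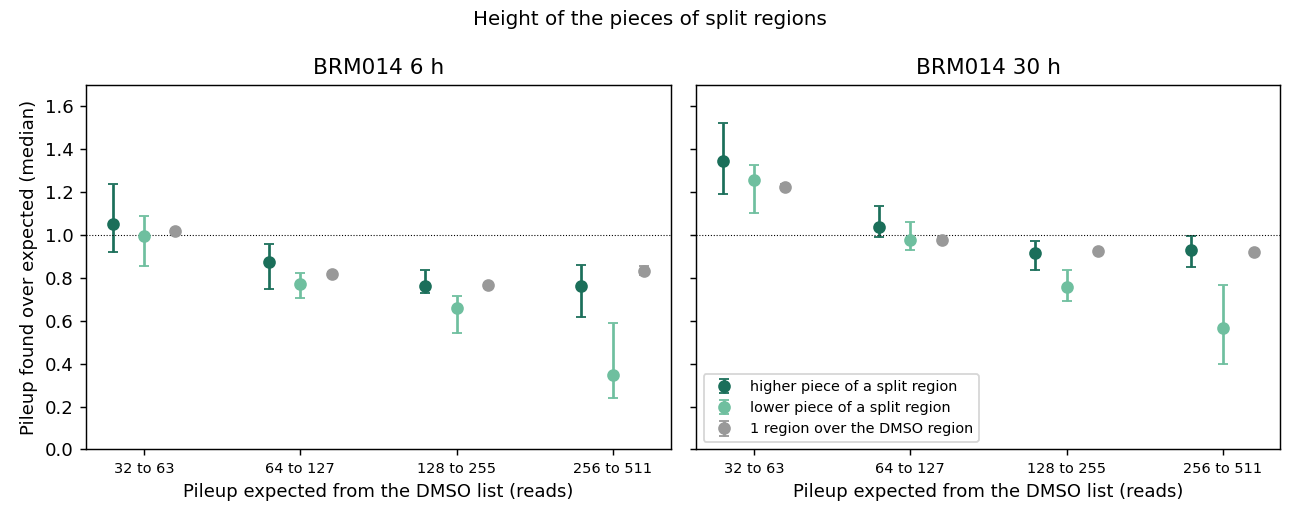
Median ratio of found to expected pileup (vertical axis) by the pileup expected from the DMSO list at the depth of the treated list (horizontal axis, doubling bins), for higher pieces, lower pieces and DMSO regions with 1 treated region, at 6 h (left) and 30 h (right). Bars are 95% order-statistic intervals and the dotted line marks a ratio of 1. Lower pieces have their lowest medians in the highest bin, at 0.346 and 0.564. The bins are cut on the ratio's own denominator, and higher and lower are ranks by the treated pileup itself.

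The widest gaps were exceptions to the usual form, since each held DMSO summits. On chromosome 6 (145813839 to 145815436) a gap of 691 bp at 6 h spanned DMSO summits with pileups of 114 and 118, between outer summits of 202 and 297. At 30 h this stretch was called again as part of the left-hand piece, and the gap was 97 bp. The widest split region, on chromosome 11 (77989721 to 77992300, 2580 bp), had a gap of 645 bp at 6 h and of 828 bp at 30 h, each over a DMSO summit of 310. That summit would give 195 at 6 h and 250 at 30 h.

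At 30 h, a gap of 686 bp on chromosome 18 (32298213 to 32299593) held DMSO summits of 60 and 60. The region had no 6 h region at all. On chromosome 19 (10954532 to 10956634) a 30 h gap of 674 bp held DMSO summits of 101 and 35, while the left-hand piece had a pileup of 203, against 174 at its DMSO summit. At 6 h that left-hand piece was not called, and 1 region with a pileup of 105 lay over the right-hand part.

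The 1 region whose strongest DMSO summit by −log10 q lay in a gap was on chromosome 7 (31741546 to 31742772), a weak region with a DMSO −log10 q of 36.1. The interval had 2 pieces with pileups of 148 and 72 at 6 h, parted by 639 bp, and 3 pieces with 232, 113 and 105 at 30 h, parted by 72 and 75 bp. Its 5 DMSO summits had pileups from 53 to 102, and the 6 h gap held 2 of them, with 102 and 53. Another summit with the same pileup of 102 lay in the right-hand 6 h piece (31742335 to 31742772). The left-hand piece reached well outside the DMSO region, from 31740644 at 6 h and 31740659 at 30 h.

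The other regions with 3 pieces and the highest DMSO −log10 q showed a different state at each time. On chromosome 10 (79495507 to 79497049) there were 3 pieces with pileups of 220, 158 and 71 at 6 h and 1 region with 258 at 30 h. The DMSO summits had 272, 462, 315 and 117. On chromosome 7 (6680076 to 6681764) there were pieces of 137, 141 and 225 at 6 h and 2 pieces of 243 and 269 at 30 h, against DMSO summits of 169, 226, 340 and 307. On chromosome 11 (103248126 to 103249724) it was the reverse, with pieces of 135 and 102 at 6 h and of 165, 122 and 87 at 30 h, against DMSO summits of 249, 217, 182 and 38.

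Split regions were spread over the genome. Their share of DMSO regions ran from 0.994% (0.603 to 1.63) on chromosome 12 to 2.01% (1.45 to 2.77) on chromosome 17. In windows of 1 Mb, 383 windows held 1 split region, 85 held 2, 19 held 3 and 4 held 4. The window with most, on chromosome 2 (84000001 to 85000000), held 5 among 38 DMSO regions. For 16 of the 631, 2.54% (1.57 to 4.08), the next DMSO region along the chromosome was also split, against 1.49% split among all DMSO regions. The nearest other DMSO region was a median of 7178 bp away (6315 to 8469), against 7703 bp (7532 to 7865) for all unsplit regions called at both times and 10581 bp (10283 to 10946) for those in the widest quartile.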

How the data were processed

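ATAC-seq peak lists of 3 groups were used, each made from 2 replicates per the labels. MACS2 2.1.2 and mm9 are named in the submitters' processing notes. The caller options, the aligner, the read filters and any read shift are not given in the sources used here. The deposited score ran from 540 to 1000. The deposited ratio is the authors' fold enrichment at the summit over background. The deposited −log10 p and −log10 q are the authors' own, not scaled between lists, and the last deposited column is the summit's offset.

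Entries sharing bases were merged in Python 3.11.15, with numpy 2.4.6, pandas 2.3.3 and scipy 1.17.1; a region took its highest entry values. Overlap was at least 1 bp. Assuming MACS2 defaults (pileup plus 1 over background plus 1, Poisson p), whole pileups were solved and matched the deposited −log10 p within 0.001. Expected pileups used each list's lowest background as depth; the depth in reads is unknown. With 1 pooled list per group no test was made. The steps were tested on simulated data. Alternatives were other overlap rules, joining of near regions, stricter or equal lists, ranking on fold enrichment and another depth measure. Regions named were the 8 strongest split at both times, the 3 widest gaps per time, the 3 regions with most pieces, those with the strongest DMSO summit in a gap, and 4 at the edge of the rule. The regions, this rule and the measures were chosen with earlier results of these data known. No sequence was read, since no mm9 genome was at hand.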

Additional observations from a re-analysis of the deposited data

How the results depend on the processing

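With at least 50% of each piece in the region, 6 h and 30 h regions over at least 2 DMSO regions made up 0.502% and 0.440%, and with each piece's strongest summit in the region the 6 h value was 0.513%. Joining regions less than 150 bp apart left 0.448% of DMSO regions split at 6 h, 0.617% at 30 h and 0.877% at either time, with 0.215% and 0.204% in the opposite direction at 6 h and 30 h. It left 0.302% of 30 h regions split at 6 h and 0.360% of 6 h regions split at 30 h; fewer narrow gaps remained by construction, so median gaps were 223 bp at 6 h and 209 bp at 30 h, and 36.7% and 30.1% held a DMSO summit. Entries at a score of 1000 gave 0.255%, 0.634% and 0.805% split at 6 h, 30 h and either time, 0.580% of 6 h and 0.409% of 30 h regions over at least 2 DMSO regions, so the opposite arrangement was the more frequent at 6 h, and 0.250% of 30 h regions split at 6 h and 0.681% of 6 h regions split at 30 h. Lists of 25922 regions each gave 1.03% split at 6 h and 0.737% at 30 h, 0.285% and 0.262% in the opposite direction, 0.779% of 30 h regions split at 6 h and 0.467% of 6 h regions split at 30 h, so the order of the times turned. A −log10 q of at least 5 gave 0.611% split at 6 h, 1.35% at either time, 0.443% of 30 h regions split at 6 h, and 10.7% and 7.42% of gaps with a DMSO summit at 6 h and 30 h. Ranked on fold enrichment, the strongest decile had 0.298% split at 6 h and 0.429% at 30 h, the weakest 1.003% and 0.936%. With depth from the median background, whole regions had ratios of 0.839 at 6 h and 0.997 at 30 h. The cause of these shifts was not tested. Of 29 splits of named regions, 29 remained at a −log10 q of at least 5, 26 under each overlap rule, 23 with lists of equal length, 16 at a score of 1000 and 7 after joining.

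No paired analysis was possible because both replicates of a group are pooled in its list, and for the same reason none was left out. How far 2 lists of the same treatment would differ in splits is therefore not known. The lowest pileups in the lists were 6 at 6 h, 7 at 30 h and 8 in DMSO. Whether depth set which stretches were called was not tested. A narrow gap can rest on few reads.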

Other observations

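The mirror image of the splits was looked at from close pairs, neighbouring regions of a list less than 150 bp apart. Shares are of all close pairs, including those with a partner not called in the other list, and so are not compared between directions. Of the 382 close pairs of the 6 h list, 205 (53.7%, 48.7 to 58.6) lay under 1 DMSO region and 139 were separate in the DMSO list too. In 27 pairs 1 partner was called there, and in 11 neither. Of the 709 close pairs of the 30 h list, 331 (46.7%, 43.0 to 50.4) lay under 1 DMSO region and 247 were separate there. In 98 pairs 1 partner was called in DMSO, and in 33 neither. The DMSO list had 792 close pairs. At 6 h 123 of them (15.5%, 13.2 to 18.2) lay under 1 region, 212 were still separate, 285 had 1 partner called and 172 neither. At 30 h 161 (20.3%, 17.7 to 23.3) lay under 1 region, 352 were separate, 207 had 1 partner called and 72 neither. Between the treated lists, 158 (41.4%) of the 6 h pairs lay under 1 region at 30 h, and 179 (25.2%) of the 30 h pairs lay under 1 region at 6 h. The numbers of close pairs per 100 regions were 1.47 at 6 h, 1.85 at 30 h and 1.87 in DMSO.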
